A study of Mus musculus with 7 samples.

Results

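The genes described are 9 genes of the cytotoxic granule: the granzymes Gzma, Gzmb, Gzmk and Gzmm, the pore-forming protein gene Prf1, and the granule genes Nkg7, Srgn, Ctsw and Lamp1. They were picked by gene name among the non-control probes of the array, 9 of 34797 names, of which 18231 could be tested. Their RNA was compared between naive CD8 T cells without active expression of the tyrosine kinase Lck and WT cells. All cells came from lymph nodes of mice that were OT-1het, carrying a transgenic T cell receptor for an ovalbumin peptide, and Rag-/-, and were sorted as CD8b+ and CD44low. The Lck-off group (4 arrays) also lacked its own Lck gene (Lck-/-) and carried a knocked-in, doxycycline-dependent Lck that had been turned off by 7 days without the drug in the diet. The WT group (3 arrays) had no such change. The promoter that drives the inducible Lck, the diet of the WT mice, the ages of the mice and whether a sample came from 1 animal were not given in the sources used here. No mice of the Lck-off genotype that were still fed doxycycline were analysed, so genotype, diet and loss of Lck cannot be told apart.

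Cytotoxic T cells kill by releasing granules onto a target cell. Perforin opens the target's membrane, and granzymes, a family of serine proteases, enter and cut proteins inside it. Serglycin holds these proteins in the granule, and Lamp1 lies in the granule membrane and reaches the cell surface when granules fuse with it. Naive CD8 T cells carry little of this machinery as protein. T-bet (Tbx21) and Eomes are the T-box transcription factors best known for driving perforin and granzyme B genes when CD8 T cells become effectors.

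The 7 samples were hybridised to 7 single-colour arrays on 1 slide. A level is the log2 intensity relative to the array's 75th percentile, so 0 is that percentile, and a probe counts as detected where the scanner software flagged it as well above background. Between 42.5% and 48.6% of 55681 probes were detected on an array. Precision is limited by there being 4 and 3 arrays. Levels of different probes are not set against each other, except that marker levels are summed, where the brightest markers weigh most. The 1 Lck probe read 8.52, 8.83, 8.60 and 8.55 in Lck-off replicates 1 to 4, against 8.99, 9.02 and 8.98 in WT replicates 1 to 3, a difference of -0.37 (SE 0.09, adjusted p = 0.0493 by limma). Where the disrupted part of Lck lies was not given in the sources used here, so the probe does not check the labels. All 10 markers of naive CD8 T cells were detected on every array, with a summed level (linear, in units of the 75th percentile) of 1271 to 1297 in Lck-off and 1252 to 1306 in WT. Lck-off replicate 2 stood apart in its markers of other cells: it detected 11 of 18 markers of NK cells and other innate lymphoid cells, against 3 to 5 on the other Lck-off arrays and 5 or 6 on the WT arrays, and it alone detected the neutrophil genes S100a8 and S100a9.

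The stretches of probe below are shown because 3 genes were read by more than 1 probe, and the readings bear on the results. Each is the first 30 of 60 bases, written 5′ to 3′, and capitals mark bases that the Gzma probe shares with a probe that the files leave unnamed. Positions are those of the files (mm9). The Gzma probe lies on chromosome 13 from 113884035 to 113884094 (minus strand), and the unnamed probe on the same strand from 113884029 to 113884088, so that 54 of their 60 bases are common. The Gzmk probes are also on the minus strand of chromosome 13; the one that was detected starts at base 18 of the transcript and spans 314 bases of genome, and the other starts at base 1244. The Nkg7 probes lie on the plus strand of chromosome 7, from 50693530 to 50693589 and from 50693148 to 50693207.
Gzma probe A_55_P2094060: tgtcttTCACTCCATCCCTGTCACTTCTGT
Unnamed probe A_55_P2011341: TCACTCCATCCCTGTCACTTCTGTGTCTGA
Gzmk probe A_66_P140238: gctctggtttccctggtggctggcgtttat
Gzmk probe A_55_P2042331: cgttcatcctaaataaaatgtggacgtctg
Nkg7 probe A_55_P2009582: aaggaatgcagaattctgtctctgtccctc
Nkg7 probe A_51_P499195: tctccatattagtggctatggcagtgtaca

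The 9 genes did not move together. Gzma was 6.81-fold higher in Lck-off cells, Nkg7 was at 58.1% and Ctsw at 74.4% of the WT level, and the other 6 genes did not pass the test. At an adjusted p under 0.05 by limma, 1 of 9 genes was therefore higher, where 3.8% of all genes tested were, and 2 of 9 were lower, where 4.57% were. In either direction 8.38% of all genes tested passed. The Lck-off and WT arrays did not overlap for 5 of the 9 genes, Gzma, Gzmm, Prf1, Nkg7 and Ctsw, and for 21.8% of all genes tested. The median difference over the 9 genes was 0.06, beside -0.01 over all genes tested. All 9 passed the filter on dim probes. Gzmb passed it only through the Lck-off arrays, and the other 8 were detected on all 7 arrays.

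**Figure D1:**
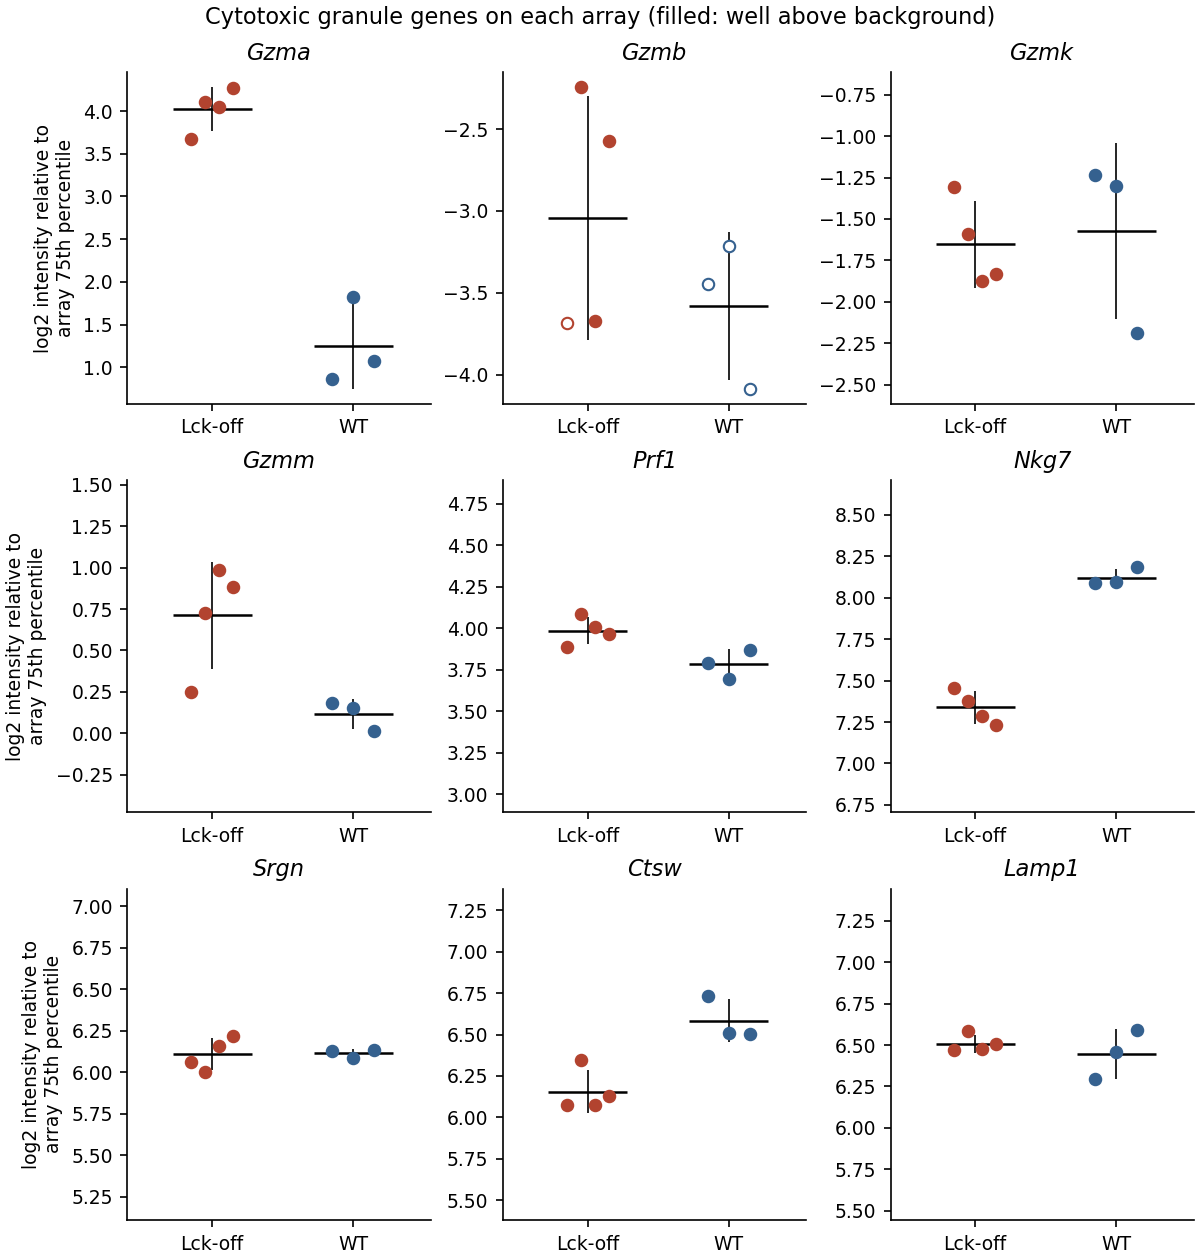
Level of each of the 9 genes on each array (log2 intensity relative to the array's 75th percentile) in 4 Lck-off arrays (red) and 3 WT arrays (blue). Horizontal lines are means, vertical lines are SD, filled symbols are well above background and open ones are not, and each panel has its own vertical range. Gzma lies between 3.67 and 4.27 on the Lck-off arrays and between 0.87 and 1.82 on the WT arrays, Nkg7 is lower on every Lck-off array, and Gzmb is the 1 gene with open symbols.

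Gzma encodes granzyme A, a trypsin-like protease. It read 3.67, 4.11, 4.05 and 4.27 in Lck-off replicates 1 to 4, against 0.87, 1.82 and 1.07 in WT replicates 1 to 3. The lowest Lck-off array lay well above the highest WT array, and the spread among WT arrays was wider than that among Lck-off arrays. The means were 4.02 ± 0.25 in Lck-off and 1.25 ± 0.50 in WT (SD, n = 4 and 3), a log2 difference of 2.77 (SE 0.25, 95% confidence interval 2.19 to 3.34, adjusted p = 0.00106 by limma). In the exact permutation test, two-sided, 1 of 35 splits of the arrays was as extreme (p = 0.0286), which is the smallest p this design allows. As intensities the Lck-off arrays gave 2810, 3657, 4015 and 4482 and the WT arrays 380, 744 and 493. The RNA was thus well above background in WT cells too.

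The unnamed probe that shares 54 bases with the Gzma probe read 3.48, 4.01, 3.90 and 4.03 in Lck-off, against 0.61, 1.73 and 0.87 in WT. Its difference was 2.79 (SE 0.27, adjusted p = 0.00146 by limma), and it was the gene or probe with the profile most like that of Gzma over the 7 arrays (root mean square distance 0.06 log2 units after centring on WT). It lies on the same stretch of the same strand, so it is a second reading of that stretch and not a further gene. The next most alike profile was that of Oasl1, an interferon-induced gene of the oligoadenylate synthetase family, with a distance of 0.10 and a difference of 2.69 (adjusted p = 0.00139 by limma). The distance is taken on unscaled levels, so it mainly picks genes with a difference of similar size. It does not show that such genes are regulated together.

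The Gzma difference was 3.01 within row 1 of the slide, which held 2 Lck-off arrays and 1 WT array (adjusted p = 0.0318 by limma), and 2.62 within row 2, which held 2 of each (adjusted p = 0.133). With the row as a block it was 2.78 (adjusted p = 0.00422). Because Lck-off replicate 2 carried the most NK cell markers, the value without it is given: 2.74 (SE 0.28, adjusted p = 0.00521). In bulk RNA, a change in the share of cells that express a gene and a change of its RNA in each cell cannot be told apart.

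Gzma is also made by NK cells, and Gzmb by NK cells and mast cells. The summed level of the 18 NK and innate lymphoid markers was 5.67 to 8.88 in Lck-off and 4.62 to 6.29 in WT. Most of each sum came from Cd244, which read 2.00 to 2.37 in Lck-off and 1.83 to 2.17 in WT. The sum therefore says little about the other markers. Of 5 that could be tested 0 passed, where 8.38% of all genes tested did (limma). At an unadjusted p under 0.05, 0 of the 5 passed too, beside 3918 of all 18231 genes. The defining markers Klrb1c, Klra8, Klra4, Klra7 and Klre1 were detected on 1 Lck-off array, replicate 2, and on no WT array; the Klra genes are close in sequence, and whether their probes separate them was not tested. Ncr1 was detected on Lck-off replicate 2 and WT replicate 1, and 7 markers, among them Klrb1a and S1pr5, on no array. On Lck-off replicates 1, 3 and 4, where Ncr1 and those Klr genes were not detected, Gzma read 3.67, 4.05 and 4.27. Cd244, Tyrobp and Klra1 were detected on all 7 arrays, and a marker that was not detected may be present below the detection limit. What part NK cells have in the granule gene results was not tested.

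Of 17 macrophage and neutrophil markers on the array, 11 to 14 were detected on Lck-off arrays and 8 to 11 on WT arrays, with summed levels of 56.5 to 66.9 in Lck-off and 44.0 to 61.4 in WT. Most of each sum came from the brightest Itgam probe, whose difference was 0.14. Of the 11 markers tested, Ly6g (3.71) and C1qb (0.59) were higher in Lck-off, where 3.8% of all genes tested were. The 11 differences ran from 0.10 to 3.71 (median 0.59). Another Ly6 gene, Ly6c1, was 3.06 higher, and whether the Ly6g probe separates the Ly6 genes was not tested. C1qa (1.38) and C1qc (1.75) did not pass (adjusted p = 0.0734 and 0.0932 by limma). Each was detected on all 4 Lck-off arrays and on 1 WT array. S100a8 and S100a9 were detected on Lck-off replicate 2 alone. Of 12 dendritic cell markers 6 to 9 were detected on Lck-off arrays and 6 to 8 on WT arrays, and they summed to 342 to 412 in Lck-off and 271 to 304 in WT. Most of each sum came from Siglech, which differed by 0.10. Bst2, which interferon also induces, was the 1 of 8 tested that passed (1.73), beside 3.8% of all genes tested that were higher. The median difference of the 8 was 1.10. H2-Ab1 (1.40), H2-Eb1 (1.26), Cd74 (1.12) and H2-Aa (1.07) were higher but did not pass (adjusted p = 0.223 to 0.374 by limma). Flt3 differed by -0.69 and Zbtb46 by 0.21. For mast cells and basophils the sums were 0.43 to 1.11 in Lck-off and 0.30 to 0.73 in WT, with 6 of 10 markers detected on no array. Platelet and B cell sums overlapped between the groups. What part macrophages, neutrophils, dendritic cells and mast cells have in the granule gene results was not tested.

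Gzmb encodes granzyme B, which cuts after aspartate and activates caspases. It read -3.68, -2.24, -3.68 and -2.57 in Lck-off, against -3.44, -3.21 and -4.09 in WT. It was detected on 3 of 4 Lck-off arrays (replicates 2, 3 and 4) and on no WT array, but the levels overlapped: replicate 3, at -3.68, was flagged as detected and WT replicate 2, at -3.21, was not. The difference was 0.54 (SE 0.41, 95% confidence interval -0.44 to 1.51, adjusted p = 0.543 by limma). Without Lck-off replicate 2 the difference was 0.27 (adjusted p = 0.756), and with normexp background correction it was 0.095 (adjusted p = 0.823). The array thus gave no call for Gzmb, at a signal near background.

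Gzmk encodes granzyme K, a trypsin-like protease whose gene lies beside Gzma. Its detected probe read -1.31, -1.59, -1.88 and -1.83 in Lck-off, against -1.23, -1.30 and -2.19 in WT. The groups overlapped, and the difference was -0.08 (SE 0.26, 95% confidence interval -0.68 to 0.53, adjusted p = 0.913 by limma). The other probe, near the end of the transcript, was detected on no array, with means of -5.72 in Lck-off and -5.68 in WT. Whether the transcript measured at base 18 extends to the second probe was not tested.

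Gzmm encodes granzyme M, which prefers to cut after methionine or leucine. It read 0.25, 0.73, 0.99 and 0.88 in Lck-off, against 0.18, 0.15 and 0.01 in WT. Every Lck-off array lay above every WT array, with replicate 1 close to them. The means were 0.71 ± 0.33 in Lck-off and 0.12 ± 0.09 in WT (SD, n = 4 and 3), and the difference of 0.59 (SE 0.17, 95% confidence interval 0.18 to 1.00) did not pass (adjusted p = 0.0917 by limma). It passed without Lck-off replicate 1 (0.75, adjusted p = 0.00836).

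Prf1 encodes perforin. It read 3.89, 4.09, 4.01 and 3.96 in Lck-off, against 3.79, 3.69 and 3.87 in WT. The groups did not overlap, though the nearest arrays lay close together. The difference was 0.20 (SE 0.08, 95% confidence interval 0.01 to 0.39) and did not pass (adjusted p = 0.201 by limma). The interval therefore bounds any rise of perforin RNA at 131% of the WT level, while that for Gzma ran from 457% to 1016%.

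**Figure D2:**
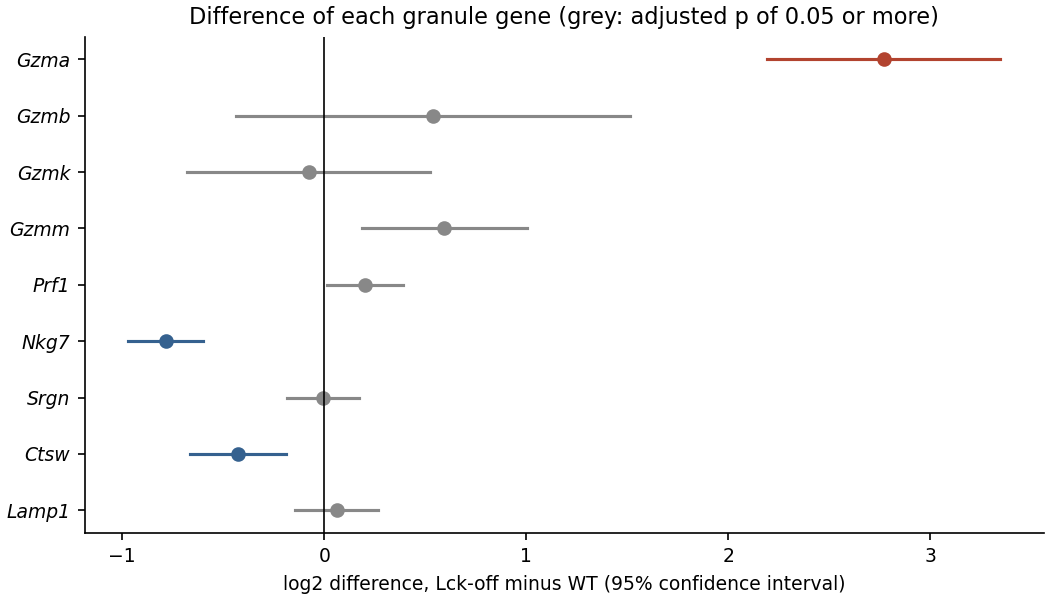
Log2 difference of each gene, Lck-off minus WT, with its 95% confidence interval from limma; red is higher in Lck-off, blue lower, and grey did not pass. Gzma stands at 2.77, Nkg7 at -0.78 and Ctsw at -0.43, and Srgn and Lamp1 lie at -0.01 and 0.06.

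Nkg7 encodes a membrane protein of the granule that takes part in granule release in mice. It read 7.46, 7.37, 7.29 and 7.23 in Lck-off, against 8.09, 8.09 and 8.18 in WT. All Lck-off arrays lay below all WT arrays, and replicates within each group differed little. The means were 7.34 ± 0.10 in Lck-off and 8.12 ± 0.05 in WT (SD, n = 4 and 3), a difference of -0.78 (SE 0.08, 95% confidence interval -0.97 to -0.60, adjusted p = 0.00158 by limma). The exact permutation test, two-sided, gave p = 0.0286 (1 split of 35). Nkg7 RNA was therefore at 58.1% of the WT level, with an interval of 51.1% to 66.0%.

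The second Nkg7 probe gave the same picture: 6.54, 6.27, 6.31 and 6.32 in Lck-off, against 7.12, 7.08 and 7.15 in WT, a difference of -0.76. Within row 1 of the slide the Nkg7 difference was -0.85 (adjusted p = 0.169 by limma), within row 2 it was -0.75 (adjusted p = 0.133), and with the row as a block it was -0.79 (adjusted p = 0.00536). Thus the size held in each row while the smaller fits did not pass. Without Lck-off replicate 2 it was -0.80 (adjusted p = 0.00599). The genes with the profile most like that of Nkg7 over the 7 arrays were Mical1, whose product is an oxidase that acts on actin (distance 0.04, difference -0.78), and Scrn2 (distance 0.05, difference -0.79). Here too the distance mainly picks genes with a difference of similar size.

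Ctsw encodes cathepsin W, a cysteine protease found mainly in CD8 T cells and NK cells. It read 6.07, 6.35, 6.07 and 6.13 in Lck-off, against 6.73, 6.51 and 6.50 in WT. The groups did not overlap, with Lck-off replicate 2 nearest to WT. The means were 6.16 ± 0.13 in Lck-off and 6.58 ± 0.13 in WT (SD, n = 4 and 3), a difference of -0.43 (SE 0.10, 95% confidence interval -0.66 to -0.19, adjusted p = 0.0461 by limma). The exact permutation test, two-sided, gave p = 0.0571 (2 splits of 35). The call was a narrow one: it was lost when any array other than Lck-off replicate 2 was left out, with adjusted p from 0.0281 to 0.128 and differences from -0.49 to -0.35. It was -0.29 within slide row 1 (adjusted p = 0.627), -0.52 within row 2 (adjusted p = 0.199) and -0.43 with the row as a block (adjusted p = 0.0796).

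Srgn, the core protein of the granule proteoglycan serglycin, read 6.06, 5.999, 6.16 and 6.22 in Lck-off, against 6.13, 6.09 and 6.13 in WT. The difference was -0.01 (SE 0.08, 95% confidence interval -0.19 to 0.17, adjusted p = 0.967 by limma). Lamp1 read 6.47, 6.59, 6.47 and 6.51 in Lck-off, against 6.29, 6.46 and 6.59 in WT. Its difference was 0.06 (SE 0.09, 95% confidence interval -0.14 to 0.27, adjusted p = 0.766 by limma). For both genes the groups overlapped, and the intervals reached no further from 0 than -0.19 for Srgn and 0.27 for Lamp1.

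Other genes of granule proteases, their inhibitors and the release machinery moved in both directions. Of 44 such genes on the array 36 could be tested, and 2 were higher, 2 lower and 32 did not pass, where 3.8% and 4.57% of all genes tested were higher and lower. Their median difference was 0.00, beside -0.01 over all genes tested. Sytl2, which docks granules at the membrane through Rab27a, fell by 0.67 to -0.37 ± 0.08 in Lck-off, against 0.30 ± 0.13 in WT (adjusted p = 0.00434 by limma). Syt11, a synaptotagmin, fell by 0.65 to 2.16 ± 0.11 in Lck-off, against 2.81 ± 0.07 in WT (adjusted p = 0.00434). Both calls held whichever array was left out.

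Lyst, which governs the size of lysosomes and granules, was 0.54 higher (adjusted p = 0.0217 by limma), and its second probe gave 0.48. Serpinb9, the inhibitor that shields mouse cells from their own granzyme B, was 0.38 higher (adjusted p = 0.0457). These 2 calls were less firm: that for Lyst was lost in 5 of the 7 fits that left out an array (adjusted p up to 0.0871), and that for Serpinb9 in all 7 (adjusted p = 0.0628 to 0.134). Of the granzyme genes outside the 9, Gzmd, Gzme, Gzmf, Gzmg and Gzmn were detected on no array. Gzmc was detected on 2 of 4 Lck-off and 1 of 3 WT arrays, with a difference of 0.63 (adjusted p = 0.499). Among genes that act directly on granzymes or granule release, Ctsc, whose product activates progranzymes, differed by -0.27 (adjusted p = 0.228), its inhibitor gene Cst7 by 0.25 (adjusted p = 0.202), Unc13d by -0.21 (adjusted p = 0.123) and Rab27a by -0.24 (adjusted p = 0.261). None of these 4 passed.

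**Figure D3:**
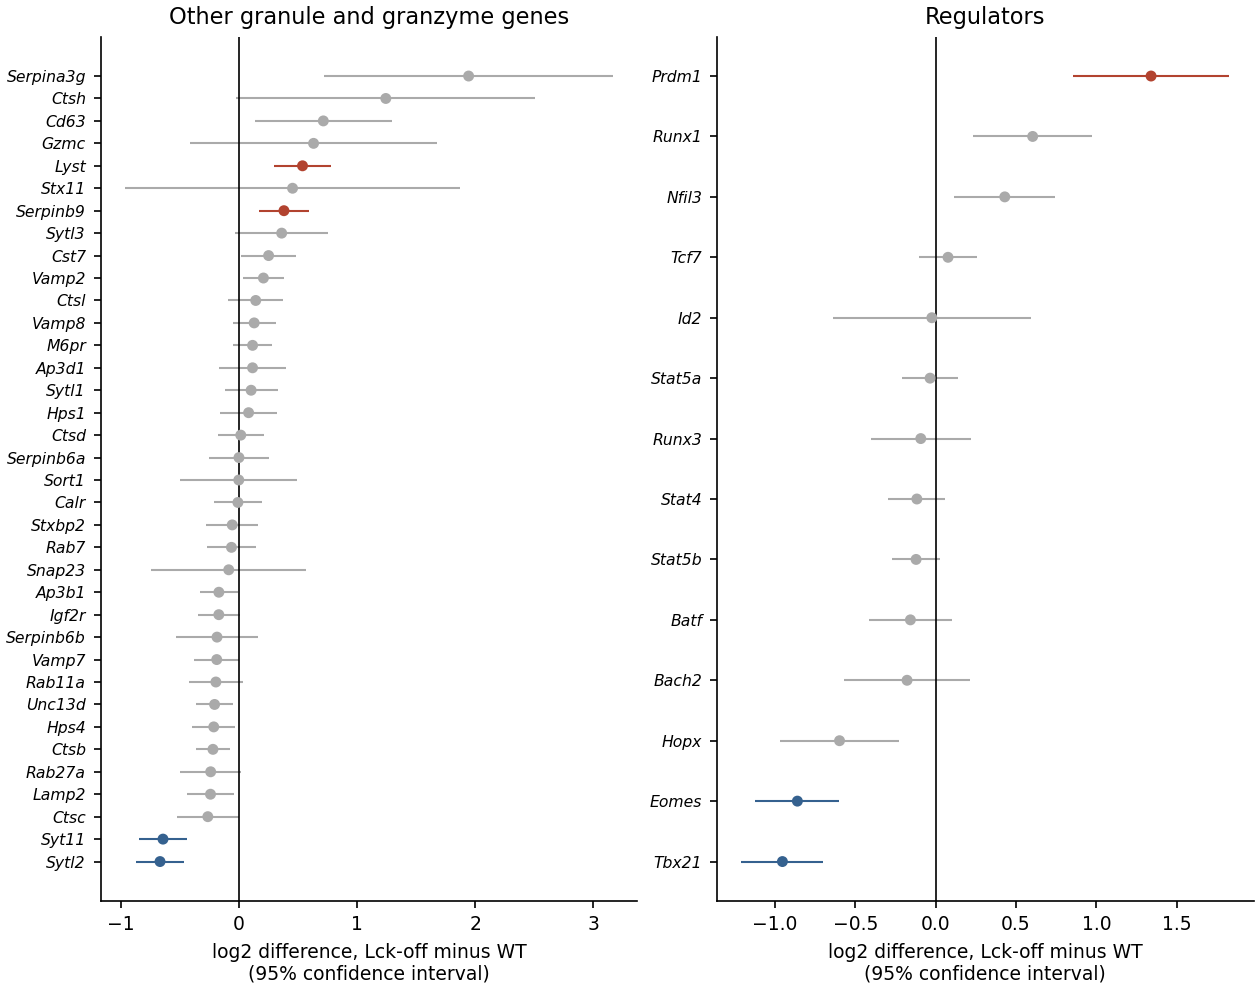
Log2 difference, Lck-off minus WT, with 95% confidence intervals, for 36 other granule and granzyme genes (left) and 14 regulators (right) that could be tested; red is higher, blue lower and grey did not pass. Most granule genes lie near 0, while Tbx21 and Eomes lie at -0.95 and -0.86 and Prdm1 at 1.34.

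Of 17 regulators of these genes 14 could be tested, of which 1 was higher, 2 lower and 11 did not pass (median difference -0.11), beside 3.8% higher and 4.57% lower over all genes tested. Tbx21 read 0.51, 0.67, 0.68 and 0.36 in Lck-off, against 1.60, 1.36 and 1.57 in WT. The difference was -0.95 (SE 0.11, adjusted p = 0.0025 by limma), which puts T-bet RNA at 51.6% of the WT level. Eomes read 0.59, 0.70, 0.78 and 1.01 in Lck-off, against 1.63, 1.72 and 1.54 in WT. Its difference was -0.86 (SE 0.11, adjusted p = 0.00407), and its second probe gave -1.14. For both T-box genes the highest Lck-off array lay below the lowest WT array.

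Prdm1, which encodes Blimp-1, a repressor active in effector cells, read -1.90, -1.93, -1.41 and -1.93 in Lck-off, against -3.53, -3.11 and -2.76 in WT, where replicate 1 was not well above background. The difference was 1.34 (SE 0.21, adjusted p = 0.00854 by limma). It was smaller, with the call kept, in other processing: 0.45 with normexp (adjusted p = 0.00476) and 0.51 in the authors' deposited table of log2 levels (adjusted p = 0.00313). Runx3, which sets the CD8 programme and acts on cytotoxic genes, read 1.90, 2.14, 1.92 and 1.68 in Lck-off, against 1.80, 2.03 and 2.18 in WT. Its difference was -0.09 (adjusted p = 0.771), and its other probe gave 0.11. Tbx21 and Eomes were lower, and Prdm1 higher, in the group in which Gzma was higher and Nkg7 and Ctsw were lower. Runx3 did not pass. Whether these regulators bear on the RNA of the granule genes was not tested. The calls for Tbx21, Eomes and Prdm1 held whichever array was left out.

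Of 24 effector and memory markers on the array 17 could be tested, of which 1 was higher and 3 lower (median difference 0.05), beside the same 3.8% and 4.57% over all genes tested. Ly6c1, a surface protein of memory and interferon-exposed T cells, was 3.06 higher (adjusted p = 0.00035 by limma), at 8.39 ± 0.20 in Lck-off, against 5.34 ± 0.39 in WT. Anxa2 fell by 2.22 (adjusted p = 0.00107), to 1.33 ± 0.35 in Lck-off, against 3.55 ± 0.18 in WT. Cd44 fell by 1.18 (adjusted p = 0.0105); the cells were sorted for low CD44, so its RNA bears on the gate. Il2rb, the shared receptor chain for the cytokines IL-2 and IL-15, fell by 0.60 (adjusted p = 0.0191), and its call was lost in 4 of the 7 fits that left out an array. Ifng and Ccl5, which effector cells make with granzymes, differed by 0.83 (adjusted p = 0.775) and -0.39 (adjusted p = 0.644), with wide spreads among Lck-off arrays.

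Genes near the 9 were examined by the probe positions in the files. Within 250 kb of 1 or more of the 9, 92 genes or unnamed probes were tested, and 3 were higher and 2 lower, which is no larger a share than the 3.8% and 4.57% over all genes tested. The 3 include Gzma itself as a neighbour of Gzmk, and the unnamed probe. Around Gzma 9 were tested and that probe was the 1 that passed. Gzmk, 86.9 kb away, and Skiv2l2, Dhx29, Gm6320, Ccno and Gm17821 did not. Elsewhere Adamts14, a protease that trims procollagen and lies 107.1 kb from Prf1, was 1.85 higher (adjusted p = 0.000578 by limma). Ppap2c, 168.8 kb from Gzmm, differed by -1.30 (adjusted p = 0.0186) and Tfdp1, an E2F partner 202.5 kb from Lamp1, by -0.47 (adjusted p = 0.046). Around Nkg7 (13 tested), Ctsw (24), Srgn (8) and Gzmb (2) 0 passed (limma; at an unadjusted p under 0.05, 4 around Nkg7, 2 around Ctsw, 0 around Srgn and 1 around Gzmb, beside 3918 of all 18231 genes).

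**Figure D4:**
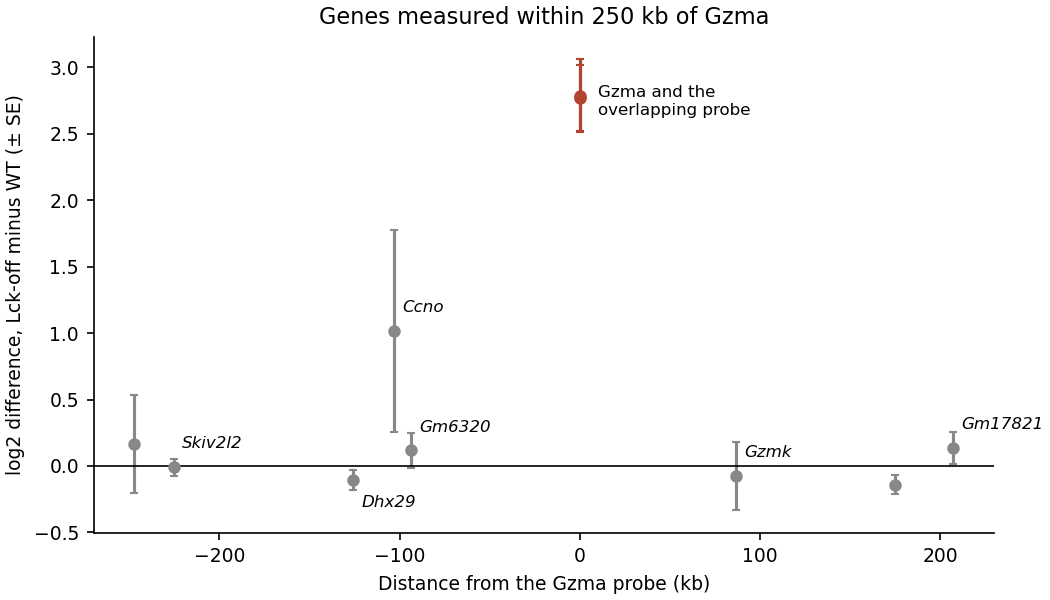
Log2 difference, Lck-off minus WT (± SE), of the genes and unnamed probes measured within 250 kb of Gzma, by distance in kb from the Gzma probe (positive towards higher coordinates). Gzma and the probe that overlaps it stand at 2.77 and 2.79 (red); Gzmk, 86.9 kb away, lies at -0.08, and no other neighbour passed (grey).

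The promoters of Gzma and Nkg7, which rose most and fell most among the 9 genes, are shown. They were looked at with the results for Tbx21, Eomes and Oasl1 known, and no role of these genes in the changes was tested. The 250 bases before the transcription start were taken from RefSeq (GRCm38.p6) and are written 5′ to 3′ on the gene's strand. RefSeq windows were matched for 8 of the 9 genes by symbol. Capitals mark matches, on either strand, to a T-box motif (AGGTGTGA), a Runx motif (TGTGGT) and an interferon response motif (GAAANNGAA), and no matches overlapped one another in these 2 windows. The Gzma window is chr13:113100982-113101231 on the minus strand, and the Nkg7 window is chr7:43436888-43437137 on the plus strand.
Gzma promoter: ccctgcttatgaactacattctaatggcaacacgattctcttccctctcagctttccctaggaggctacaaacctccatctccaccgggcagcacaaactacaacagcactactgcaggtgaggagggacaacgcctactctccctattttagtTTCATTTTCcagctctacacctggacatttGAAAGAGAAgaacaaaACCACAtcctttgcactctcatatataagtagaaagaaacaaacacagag
Nkg7 promoter: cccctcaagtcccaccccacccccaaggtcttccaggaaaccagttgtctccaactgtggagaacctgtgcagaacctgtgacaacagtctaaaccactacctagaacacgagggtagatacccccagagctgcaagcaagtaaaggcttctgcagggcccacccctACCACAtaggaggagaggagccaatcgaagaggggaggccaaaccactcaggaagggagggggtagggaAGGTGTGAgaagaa

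The Gzma window held 2 interferon response matches, from 96 to 88 and from 66 to 58 bases before the start, and 1 Runx match from 50 to 45 bases before it. The Nkg7 window held 1 T-box match, from 14 to 7 bases before the start, and 1 Runx match from 83 to 78. The 8 genes had 10 windows, since Gzmm and Srgn had 2 each. The T-box letters were in 1 of these windows, the Runx letters in 7 and the interferon response letters in 3 (those of Gzma and Lamp1 and 1 of Srgn). Among 32851 RefSeq promoter windows of the same length, 1.12% held the T-box letters, 14.0% the Runx letters and 7.13% the interferon response letters. A match shows only that these letters are present. Whether they bear on the RNA of any of the 8 genes was not tested. A window of Srgn and that of Lamp1 hold the interferon response letters too, and their RNA did not pass the test.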

How the data were processed

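Total RNA (50 ng per sample) was labelled with Cy3 and read on 7 arrays. The intensity values are output of Feature Extraction 10.7.3.1, per the file headers, which subtracted background and detrended each array to give the processed intensity and left the mean spot and local background intensities uncorrected. The flags and spot types come from the same software, per the file headers. The deposited value table is on a log2 scale, as its values show; the submitters' processing notes name limma with no version, and the steps behind it were not given in the sources used here.

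Levels were the log2 of the processed intensity, less the 75th percentile of the array, with non-uniform spots left out. Probes well above background on at least 3 arrays were kept (25578 of 55681), and each gene was read by its brightest kept probe. The comparison of Lck-off with WT used limma 3.58.1 in R 4.3.3 over 18231 genes, with Benjamini-Hochberg adjustment and no covariate. The fit was tested on simulated data. The samples are biological replicates per the series text; p-values measure the spread between these samples. Arrays of the same replicate number had correlations of deviations of 0.106, 0.0493 and -0.00831 between the groups, and no pairing was used. Weak correlations cannot show that the samples were unpaired. Results with the replicate number as a block are given below. WT replicate 3 and Lck-off replicates 2 and 3 lay in row 1 of the slide, the others in row 2, and the row was tested as a batch.

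Named genes were all 9 with every probe, up to 6 called genes of smallest adjusted p from each other list, Tbx21, Eomes, Runx3 and Prdm1, up to 4 called genes within 250 kb, and the 2 genes of most alike profile for the 2 called genes with the largest difference; other genes named were chosen after their values were seen. The 9 genes and all lists were chosen with earlier results of these data known. Alternatives were other background correction (normexp, offset 50), scaling, filters, probe averaging, moderation, the deposited table, blocks, single slide rows and each array left out.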

Additional observations from a re-analysis of the deposited data

How the results depend on the processing

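Over 20 alternatives, Gzma stayed called in 19, Nkg7 in 17 and Ctsw in 9, all with the same direction. The count of the 9 genes higher was 2 with normexp and with trended and robust moderation (Gzmm joined Gzma, at 0.50 with adjusted p = 0.0431 and at 0.59 with adjusted p = 0.0312) and 0 in slide row 2 alone, and ranged from 1 to 2 when 1 array was left out. The count lower was 1 with no filter on dim probes, 0 with the replicate block (Nkg7 -0.75, adjusted p = 0.0561), 1 with the row as a block and 0 in either row alone, and ranged from 1 to 2 when 1 array was left out. Genes called in all numbered 717 with no filter, 374 with the replicate block, 102 in row 1 alone and 0 in row 2 alone (limma; 2711 at an unadjusted p under 0.05), and 960 to 1403 when 1 array was left out. The single rows hold fewer arrays; the cause of the other shifts was not tested. Genes near 0 changed sign: Gzmk was 0.000717 with the row as a block, 0.45 in row 1 alone and -0.38 to 0.093 when 1 array was left out; Srgn was 0.020 in the deposited table, 0.030 in row 2 alone and -0.044 to 0.028; Lamp1 was -0.059 in row 1 alone and -0.014 to 0.13. Other granule genes higher ranged from 0 to 2 over the left-out arrays and were 4 in the deposited table. Gzmb had no value where a probe had to be detected on all 7 arrays; its signal near background limits what the arrays show of it.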
